A study of Mus musculus with 10 samples.

Results

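The 10 genes described here encode Wnt ligands (Wnt7b, Wnt7a, Wnt5a, Wnt4, Wnt3 and Wnt8b), the enzyme Porcn that readies them for secretion, and the secreted Wnt antagonists Sfrp1 and Sfrp2 with their relative Dkk3. They were taken by gene symbol from the 23235 genes of each expression table, and the list was chosen with earlier results of these data known. Wnt proteins are secreted, lipid-modified signals. Most act over short distances through Frizzled receptors, either on beta-catenin, which drives target genes together with TCF/LEF factors, or on cell shape and movement without it. Secreted Frizzled-related proteins bind Wnts outside the cell. In the embryonic cortex, Wnt signals from the cortical hem pattern the tissue, and signals within the ventricular zone influence whether progenitors divide or become neurons.

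RNA was sequenced from GFP-positive cells of mouse cortex after knockdown of Chd8, a chromatin remodeler studied for its links to autism. A GFP-marked plasmid with a Chd8 or a control shRNA was electroporated into the cortical wall in utero at embryonic day 13, and GFP-positive cells were sorted at embryonic day 15. Each library is a pool of cortices from 3 to 5 embryos, and the design text calls the pools biological replicates. The new set holds 3 Chd8 knockdown libraries and 3 control libraries (numbered 10, 11 and 12 in each group), and the first set holds 2 Chd8 knockdown libraries and 2 control libraries (numbered 1 and 2).

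Every group, controls included, went through electroporation with a GFP plasmid and sorting, and the labels used here name neither strain nor genotype for the embryos. The new set was made with the shRNA called shRNA1 and the first set with shRNA2. Between the sets the shRNA, the batch and the normalization all differ at once, so their parts cannot be told apart. Each fold change was taken within a set. Levels were set side by side across sets only to describe low or silent genes and the share of genes above a given level. The sorted cells are those that took up plasmid at embryonic day 13 and their progeny, so the libraries mix progenitors and neurons. In such bulk samples, fewer cells of a type and less RNA per cell cannot be told apart.

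Chd8, the targeted gene, had 2.09, 1.84 and 1.92 FPKM (fragments counted per length of transcript and per amount of mapped reads) in the new-set knockdown libraries, against 3.59, 3.30 and 4.02 FPKM in their controls (log2 fold change -0.65, limma adjusted p = 0.0213). The first-set knockdown libraries had 8.55 and 9.23 FPKM of Chd8, against 12.4 and 13.8 FPKM in the controls (-0.51, limma adjusted p = 0.152). All log2 fold changes are knockdown over control on the log2(FPKM + 1) scale, which understates the change of low genes. A gene was tested where its mean in a table was at least 1 FPKM, and it is called changed at a Benjamini-Hochberg adjusted p under 0.05 over all genes tested. The read depth behind the FPKM is unknown.

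The first-set knockdown libraries stood apart from all others in genes that should be silent. The mean over 1096 olfactory receptor genes was 0.672 and 0.557 FPKM in the first-set knockdown libraries, against 0.00360 and 0.00817 FPKM in the first-set controls, and at most 0.00162 FPKM in the new set. Genes above 0.1 FPKM made up 80.9% and 78.9% of all genes in the first-set knockdown libraries, 60.9% and 61.6% in the first-set controls, and 58.8% to 59.9% in the new set. The median log2 fold change of all tested genes was 0.02 for the new set, against -0.15 for the first set. Relative to the first-set median, the first-set changes of Wnt4, Sfrp1 and Wnt7b were 2.34, -1.07 and 0.50.

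The promoters of 5 of the 10 genes are in the RefSeq promoter table used here (Wnt7a, Wnt4, Wnt3, Wnt8b and Sfrp2). Each spans 250 bases before to 50 bases after the gene's start, in coordinates of GRCm38.p6, a later build than the mm9 named for the FPKM. Shown are Wnt7a and Sfrp2, which were both lower in the new-set knockdown libraries, and Wnt4 and Wnt3, which were both higher in the first-set knockdown libraries. Wnt7a lies at chr6:91411304-91411603 on the minus strand, Sfrp2 at chr3:83766071-83766370 on the plus strand, Wnt4 at chr4:137277385-137277684 on the plus strand and Wnt3 at chr11:103773925-103774224 on the plus strand. The sequences run 5′ to 3′ along the gene, and capitals mark a TCF/LEF core word.
Wnt7a: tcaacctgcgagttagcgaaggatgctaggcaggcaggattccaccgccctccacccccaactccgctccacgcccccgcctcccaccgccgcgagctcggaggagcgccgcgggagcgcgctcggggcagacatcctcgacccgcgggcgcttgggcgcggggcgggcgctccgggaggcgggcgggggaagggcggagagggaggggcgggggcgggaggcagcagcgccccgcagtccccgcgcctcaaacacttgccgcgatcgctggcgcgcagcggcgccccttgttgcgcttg
Sfrp2: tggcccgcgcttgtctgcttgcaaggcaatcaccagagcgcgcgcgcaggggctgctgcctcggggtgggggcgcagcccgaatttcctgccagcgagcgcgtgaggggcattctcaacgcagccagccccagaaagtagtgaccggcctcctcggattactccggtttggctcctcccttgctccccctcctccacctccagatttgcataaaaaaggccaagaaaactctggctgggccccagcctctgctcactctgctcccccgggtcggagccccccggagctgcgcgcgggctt
Wnt4: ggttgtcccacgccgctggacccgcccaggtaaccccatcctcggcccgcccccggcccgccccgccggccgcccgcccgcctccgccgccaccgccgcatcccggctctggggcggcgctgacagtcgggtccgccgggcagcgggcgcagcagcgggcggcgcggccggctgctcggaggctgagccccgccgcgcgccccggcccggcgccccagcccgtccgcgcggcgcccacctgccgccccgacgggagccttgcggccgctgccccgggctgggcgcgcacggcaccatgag
Wnt3: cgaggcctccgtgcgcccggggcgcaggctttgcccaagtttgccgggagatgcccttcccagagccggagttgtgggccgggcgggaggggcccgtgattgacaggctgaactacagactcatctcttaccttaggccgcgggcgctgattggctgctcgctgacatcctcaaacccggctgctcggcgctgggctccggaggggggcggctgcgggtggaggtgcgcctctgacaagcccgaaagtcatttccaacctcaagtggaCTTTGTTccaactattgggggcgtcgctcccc

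Core forms of the TCF/LEF motif were searched on both strands: the word CTTTGAA, the word CTTTGAT, the word CTTTGTA and the word CTTTGTT. The Wnt3 window held 1 such word (CTTTGTT, on the plus strand within the 50 bases after the start), and the Wnt7a, Sfrp2 and Wnt4 windows held 0. Of all 32851 promoters in the table, 16.9% held at least 1. The word TATAAA was in 0 of these windows and in 13.6% of all promoters. The windows of Wnt4 and Wnt7a were rich in G and C at 84.3% and 76.0%, with 51 and 42 CpG pairs, against a median of 52.7% and 7 CpG pairs over all promoters. A word match is a description of the letters, not a sign of binding.

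Wnt7b was the most abundant Wnt ligand gene by FPKM in every library, and it rose in the new set. Wnt7b is a ligand known to signal through beta-catenin, and in the cortex it is associated mainly with differentiating neurons. The new-set knockdown libraries had 272.6, 286.9 and 240.4 FPKM of Wnt7b, against 177.9, 138.4 and 149.8 FPKM in the controls. Every knockdown value lay above every control value. The means were 266.6 ± 23.8 FPKM in the knockdown and 155.4 ± 20.3 FPKM in the control (SD, n = 3 each), a ratio of 1.72. On the log2 scale the knockdown was higher by 0.78 ± 0.12 (SE, limma adjusted p = 0.0153). The adjusted p was 0.0509 without knockdown replicate 10 and 0.0660 without knockdown replicate 11.

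The first-set knockdown libraries had 21.9 and 21.5 FPKM of Wnt7b, against 13.4 and 21.0 FPKM in the controls. Both knockdown values were above both controls, but the second control was close to them. The log2 fold change of 0.35 ± 0.27 (SE) did not pass (limma adjusted p = 0.358). Averaged over both sets in a joined fit, the fold change of Wnt7b was 0.56 ± 0.13 (SE, limma adjusted p = 0.00726), and it passed under each of the 17 alternative settings that gave a value (adjusted p between 0.00262 and 0.0216). The difference between the sets, new minus first, was 0.43 ± 0.25 (SE, limma adjusted p = 0.207), which does not show that the sets were alike.

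Wnt7a, the close paralog of Wnt7b that is expressed in ventricular zone progenitors, moved the other way in the new set. The knockdown libraries had 7.41, 7.57 and 7.08 FPKM of Wnt7a, against 13.3, 11.4 and 10.97 FPKM in the controls. The 3 knockdown libraries lay close together and below all controls. The mean was 7.35 ± 0.253 FPKM in the knockdown, 61.8% of the control mean of 11.9 ± 1.25 FPKM (SD, n = 3 each). Wnt7a fell by 0.62 ± 0.11 on the log2 scale (SE, limma adjusted p = 0.0200). The adjusted p was 0.0603, 0.0733 and 0.0510 without knockdown replicates 10, 11 and 12, and 0.0559 without control replicate 10.

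The first set gave 2.28 and 4.22 FPKM of Wnt7a in the knockdown libraries, against 2.82 and 5.54 FPKM in the controls. The groups overlapped, and the spread within each was larger than the difference between their means (-0.27 ± 0.36 SE, limma adjusted p = 0.605). The sign turned to 0.06 without knockdown replicate 1 and to 0.12 without control replicate 2. The joined fold change of Wnt7a was -0.45 ± 0.17 (SE, limma adjusted p = 0.0677), and 0.0124 was the adjusted p with the replicate number as a block in both sets.

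**Figure D1:**
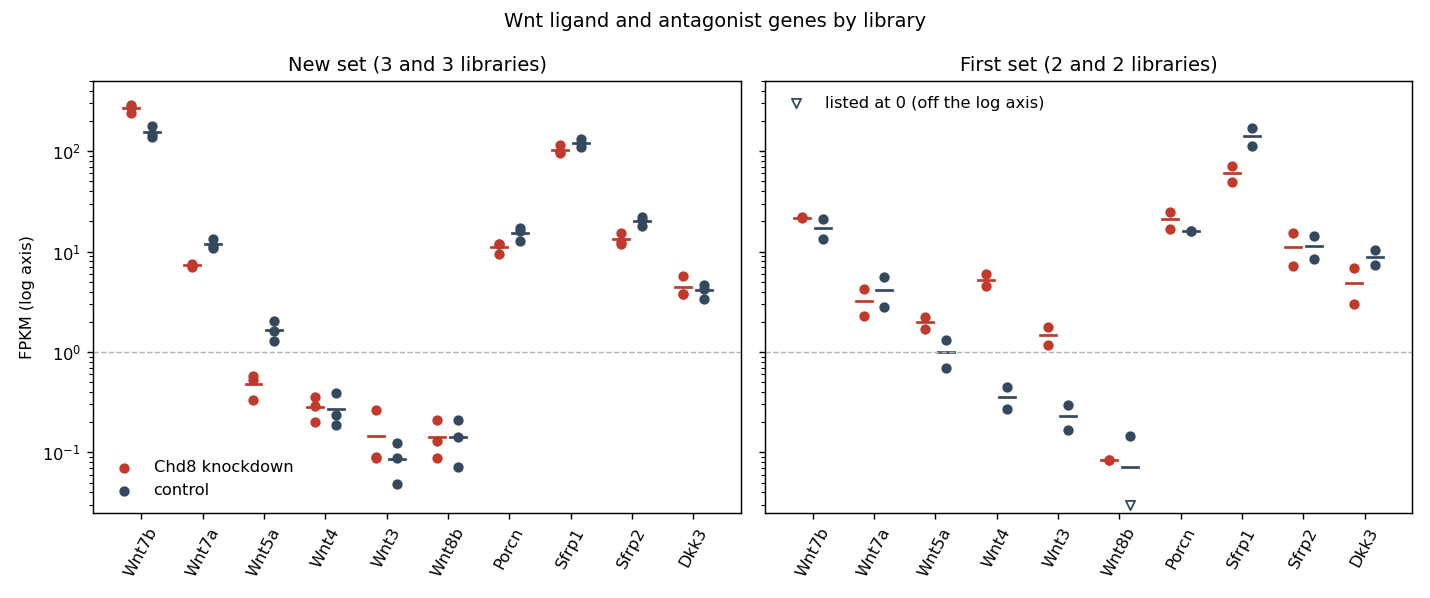
FPKM of the 10 genes on a log axis, 1 point per library and a bar at each group mean, Chd8 knockdown in red and control in blue, with the new set in the left panel and the first set in the right. The dashed line is at 1 FPKM, the minimum mean for testing, and an open triangle marks the first-set control library in which Wnt8b was listed at 0; Wnt7b separates upward and Wnt7a downward in the new set, and Wnt4 and Wnt3 separate upward in the first set.

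Because FPKM are scaled by transcript length, the ligand genes can be set against each other within a library. Wnt7b made up 94.5%, 95.0% and 94.6% of the summed FPKM of all 19 Wnt genes in the new-set knockdown libraries, against 89.8%, 88.4% and 88.6% in the controls. Wnt7a made up 2.57%, 2.51% and 2.78% in the knockdown libraries, against 6.73%, 7.30% and 6.48% in the controls. The ratio of Wnt7b to Wnt7a, in which any factor common to a library cancels, was 36.8, 37.9 and 33.98 in the knockdown libraries, against 13.3, 12.1 and 13.7 in the controls. Knockdown and control libraries did not overlap in any of these 3 measures. They restate the Wnt7b and Wnt7a values given above, which had already separated in opposite directions, so this is not a further result.

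The same ratio was 9.61 and 5.09 in the first-set knockdown libraries, against 4.77 and 3.79 in the controls. It was higher in both knockdown libraries, although the lower of them was close to the higher control. The share of Wnt7b was 60.7% and 52.5% in the first-set knockdown libraries, against 71.1% and 69.2% in the controls, so it was lower there while the FPKM of Wnt7b was not. Wnt4 and other low ligand genes add to the sum in those knockdown libraries, which also had raised values in genes that should be silent. The part of such background in the share was not tested. The summed FPKM of the 19 Wnt genes was 36.1 and 40.9 in the first-set knockdown libraries, against 18.9 and 30.3 in the controls. In the new set that sum was 288, 302 and 254 in the knockdown libraries, against 198, 157 and 169 in the controls.

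**Figure D2:**
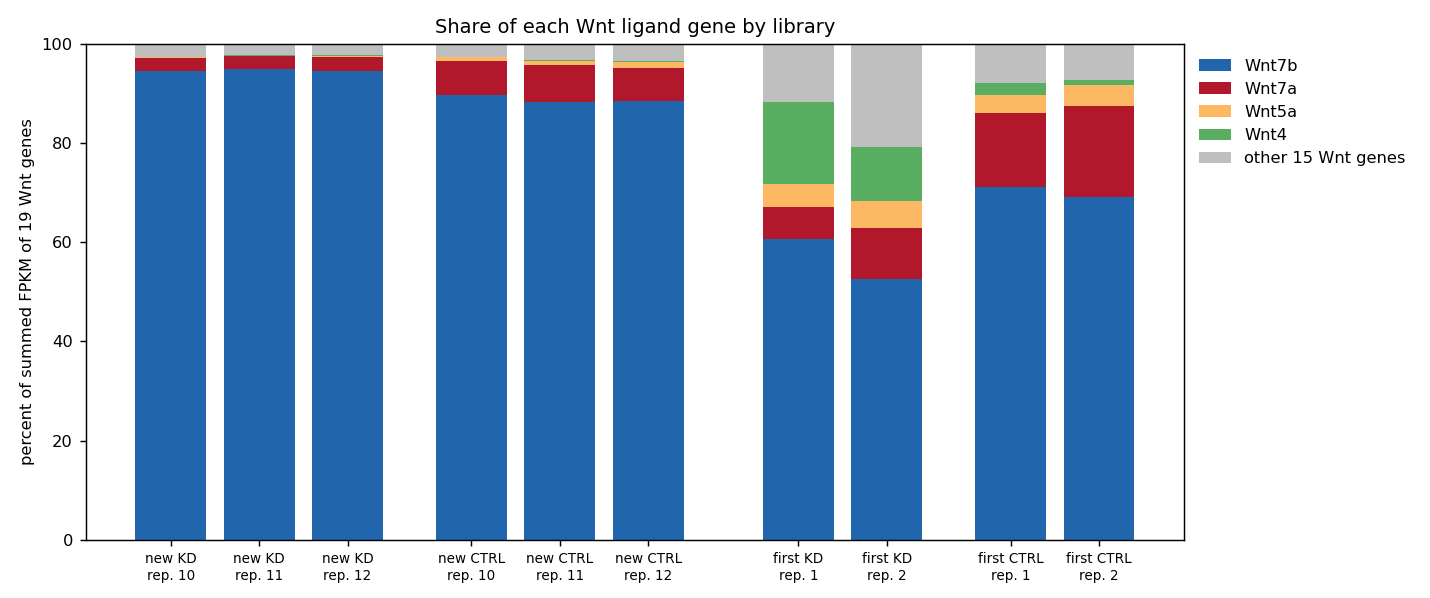
Stacked bars give the percent of the summed FPKM of 19 Wnt genes taken by Wnt7b, Wnt7a, Wnt5a, Wnt4 and the other 15 Wnt genes in each library, with knockdown (KD) bars left of control (CTRL) bars in each set. In the new set the Wnt7a segment is 2.51% to 2.78% in knockdown libraries and 6.48% to 7.30% in controls, and in the first set the Wnt4 segment is 16.5% and 10.99% in knockdown libraries, against 2.35% and 0.887% in controls. The first-set knockdown libraries also had raised values in genes that should be silent.

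Markers of the cell types that express these ligands moved as well. Of 18 neuron markers tested in the new set, 8 rose and 0 fell, among them Dcx and Neurod6, beside 3.84% and 5.15% of all genes tested. Their summed level was 3782 to 4696 FPKM in the knockdown libraries, against 2689 to 3206 FPKM in the controls. Of 18 radial glia markers, 0 rose and 9 fell, among them Pax6, Sox2, Hes1 and Hes5. Fold changes were below 0 for 15 of these markers, and the list median was -0.41, beside 0.02 over all genes tested. Their sum was 1176 to 1762 FPKM in the knockdown libraries, against 1467 to 1885 FPKM in the controls, and these ranges overlapped. Of 10 intermediate progenitor markers 0 rose and 3 fell (Gadd45g, Hes6 and Neurog2), with sums of 711 to 782 FPKM in the knockdown libraries, against 983 to 1146 FPKM in the controls. Among first-set calls of that list Gadd45g and Hes6 rose and Btg2, Elavl4 and Eomes fell, with sums of 695 to 1117 FPKM in the knockdown libraries, against 756 to 822 FPKM in the controls.

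As a percent of the neuron marker sum, Wnt7b was 6.83%, 6.11% and 6.36% in the new-set knockdown libraries, against 6.06%, 4.32% and 5.57% in the controls. Those values did not overlap, but the lowest knockdown value and the highest control were close. Wnt7a was 0.589%, 0.644% and 0.402% of the radial glia sum in the knockdown libraries, against 0.909%, 0.659% and 0.582% in the controls, and these overlapped. The part of cell type proportions in the changes of Wnt7b and Wnt7a was not tested. Neuron markers went the other way in the first set: 0 of 18 rose and 6 fell, beside 13.2% and 10.7% of all genes tested, with a sum of 3449 to 3767 FPKM in the knockdown libraries, against 5032 to 5490 FPKM in the controls. Radial glia markers there showed 0 of 18 higher and 4 lower, with sums of 1099 to 2275 FPKM in the knockdown libraries, against 1922 to 1961 FPKM in the controls.

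**Figure D3:**
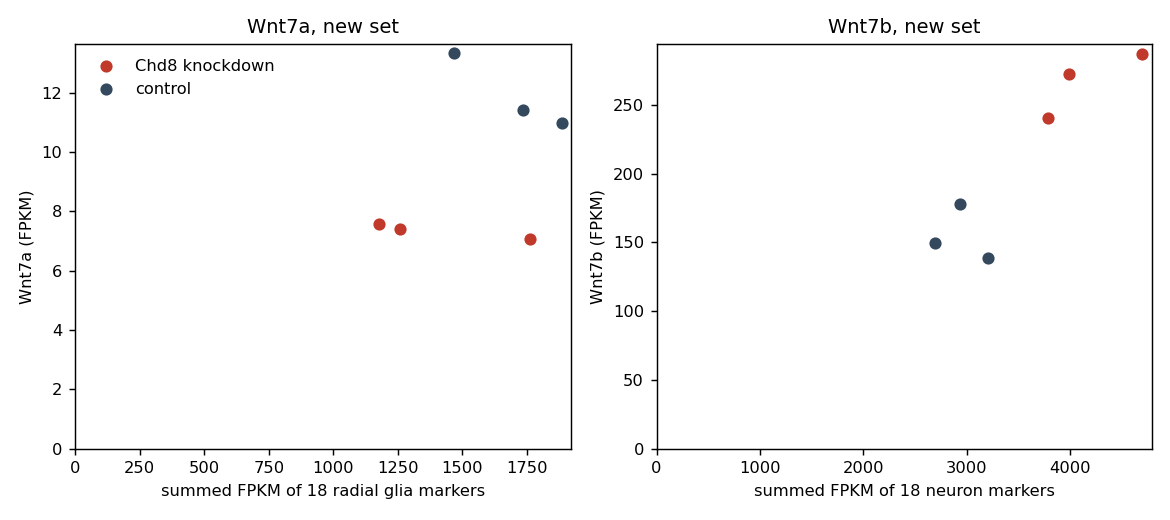
The left panel plots Wnt7a (FPKM) against the summed FPKM of 18 radial glia markers, and the right panel Wnt7b (FPKM) against the summed FPKM of 18 neuron markers, 1 point per new-set library, Chd8 knockdown in red and control in blue. Knockdown libraries lie above controls on both axes of the right panel, and in the left panel they lie lower in Wnt7a at overlapping radial glia sums. The sum does not show that 9 of the 18 radial glia markers fell.

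Wnt5a, a ligand best known for signalling without beta-catenin, was low in every library, and its fold changes had opposite signs in the sets. The new-set knockdown libraries had 0.579, 0.334 and 0.526 FPKM of Wnt5a, against 1.63, 1.30 and 2.03 FPKM in the controls. Its mean of 0.480 ± 0.129 FPKM in the knockdown was 29.1% of the control mean of 1.65 ± 0.365 FPKM (SD, n = 3 each), with no overlap (-0.84 ± 0.15 SE, limma adjusted p = 0.0203). Wnt5a passed the filter on low values only through its control group, and without control replicate 10 or 12 it was no longer tested. The adjusted p was 0.0509, 0.0820 and 0.0502 without knockdown replicates 10, 11 and 12.

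Wnt5a in the first set had 1.70 and 2.25 FPKM in the knockdown libraries, against 0.692 and 1.31 FPKM in the controls. Both knockdown libraries were above both controls, and the fold change of 0.58 ± 0.27 (SE) did not pass (limma adjusted p = 0.150). With each library's olfactory receptor mean subtracted from every gene, the first-set fold change of Wnt5a was 0.24 (limma adjusted p = 0.575). The difference between the sets, new minus first, was -1.42 ± 0.28 (SE, limma adjusted p = 0.00393). It passed in each of the 14 alternatives that gave a value, where it ranged between -2.56 and -1.08, and it was -1.08 (limma adjusted p = 0.0184) after the subtraction.

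Wnt4, known from kidney and gonad development, was near the bottom of the scale in all new-set libraries and in the first-set controls. It had 5.95 and 4.50 FPKM in the first-set knockdown libraries, against 0.443 and 0.269 FPKM in the controls. The knockdown mean of 5.22 ± 1.03 FPKM was 14.7 times the control mean of 0.356 ± 0.124 FPKM (SD, n = 2 each), with a log2 fold change of 2.19 ± 0.25 (SE, limma adjusted p = 0.00191). Wnt4 passed the filter only through the knockdown group, so a tested Wnt4 had to differ. It was called in all 10 alternatives that gave a value, but those that kept the filter add no support for the same reason. With no filter the fold change of Wnt4 was 2.19 (limma adjusted p = 0.0270), beside 2668 of 20580 genes called. With the olfactory receptor mean subtracted, its fold change was 2.05 (limma adjusted p = 0.00496). That mean is a single value for each library, so subtracting it does not remove a background that varies between genes.

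In the new set, Wnt4 had 0.203, 0.290 and 0.359 FPKM in the knockdown libraries, against 0.186, 0.234 and 0.390 FPKM in the controls. The groups overlapped, and Wnt4 was under the filter there and not tested. With no filter on low values, the new-set fold change of Wnt4 was 0.02 (limma adjusted p = 0.908), and the difference between the sets was -2.17 (limma adjusted p = 2.5e-05). Without the filter, 6345 of 17193 genes were called in that difference, 40.7% of them higher. Wnt4 exceeded 1 FPKM only in the first-set knockdown libraries, which also had raised values in genes that should be silent.

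Wnt3, a ligand of the beta-catenin branch, followed the same pattern at a lower level. It had 1.19 and 1.77 FPKM in the first-set knockdown libraries, against 0.168 and 0.294 FPKM in the controls, a ratio of means of 6.40. Its mean over the table was under the filter, so it was not tested. With no filter its fold change was 1.001 (limma adjusted p = 0.0488), beside 2668 of 20580 genes called, 84.4% of them higher. In the new set it had 0.263, 0.0877 and 0.0892 FPKM in the knockdown libraries, against 0.0486, 0.123 and 0.0880 FPKM in the controls, and the groups overlapped. Wnt3 overlaps Wnt9b in the RefSeq annotation, and whether reads were counted by strand is not given in the sources used here.

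The higher values of Wnt4 and Wnt3 can be read against other genes that were low in the first-set controls. Of 12010 genes with a control mean under 1 FPKM, 48.5% were higher in both knockdown libraries than in both controls. Of these 12010 genes, 1.39% reached at least the lower knockdown value of Wnt4 in both knockdown libraries, and 11.6% reached that of Wnt3. The first-set knockdown libraries also held 0.521 and 1.14 FPKM of Wnt3a, 0.600 and 0.898 FPKM of Wnt8a, and 0.719 and 1.17 FPKM of Wnt10b. In the controls Wnt3a and Wnt8a were listed at 0 in both libraries, and Wnt10b was at 0 and 0.0282 FPKM. The mean of 1096 olfactory receptor genes, which cortical cells are not known to use, was 0.672 and 0.557 FPKM in the same knockdown libraries. Of these genes, 55.1% and 49.2% were above 0.01 FPKM there, so the mean does not describe single genes. The part of such background in the Wnt4 and Wnt3 values was not tested.

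**Figure D4:**
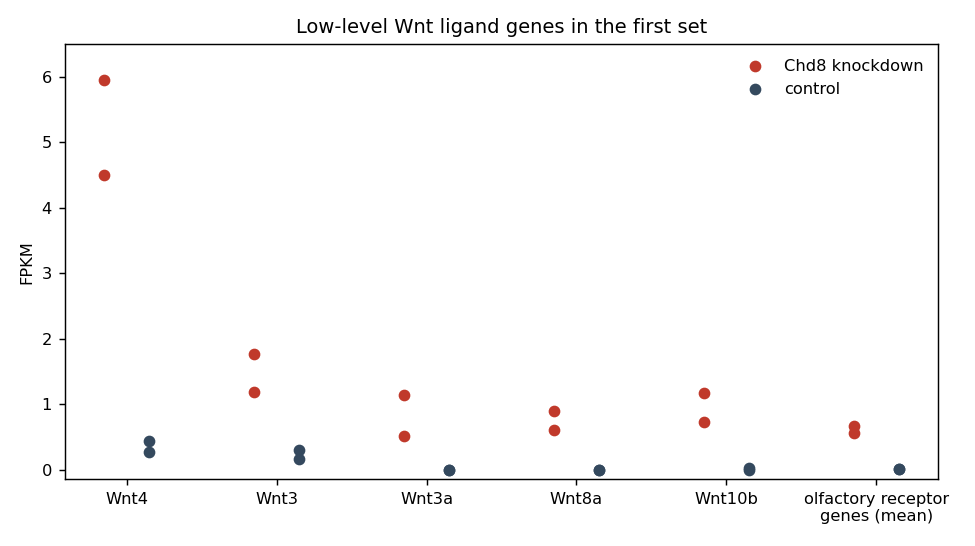
FPKM of Wnt4, Wnt3, Wnt3a, Wnt8a and Wnt10b and the mean FPKM of 1096 olfactory receptor genes in the first set, 1 point per library, Chd8 knockdown in red and control in blue. Wnt4 at 4.50 and 5.95 FPKM stands above the olfactory receptor mean of 0.557 and 0.672 FPKM in the knockdown libraries, whereas Wnt3a, Wnt8a and Wnt10b lie between 0.521 and 1.17 FPKM. A mean over 1096 genes does not show the range of single genes.

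Wnt8b, a ligand of the hippocampal and medial part of the pallium, stayed below the filter in both sets and was not tested. It had 0.211, 0.0887 and 0.129 FPKM in the new-set knockdown libraries, against 0.212, 0.0717 and 0.141 FPKM in the controls. Its first-set values were 0.0838 and 0.0833 FPKM in the knockdown libraries, against a value listed at 0 and 0.144 FPKM in the controls. The groups overlapped in both sets, and at this level a difference was not detectable.

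Porcn, the acyltransferase of the endoplasmic reticulum that attaches the lipid Wnts need to leave the cell, lay below control in the new set and above it in the first. The new-set knockdown libraries had 11.8, 11.8 and 9.54 FPKM of Porcn, against 16.03, 17.3 and 12.7 FPKM in the controls. All knockdown values were below all controls, with means of 11.05 ± 1.30 FPKM in the knockdown and 15.3 ± 2.33 FPKM in the control (SD, n = 3 each). The fold change of -0.44 ± 0.14 (SE) did not pass (limma adjusted p = 0.0807), while with the replicate number as a block it did (limma adjusted p = 0.0192). Replicate 12 was the lowest library of both groups.

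The first-set knockdown libraries had 16.8 and 24.99 FPKM of Porcn, against 16.10 and 16.18 FPKM in the controls. Both were above both controls, though the first by little (0.33 ± 0.26 SE, limma adjusted p = 0.374). The difference between the sets, new minus first, was -0.76 ± 0.26 (SE, limma adjusted p = 0.0452). That call held in 8 of 17 alternatives, with adjusted p between 0.0137 and 0.139. It was lost when any library other than new-set control replicate 12 or first-set knockdown replicate 1 was left out (adjusted p between 0.0631 and 0.139), and it was lost with the olfactory receptor mean subtracted, where the difference was -0.72 (adjusted p = 0.0565).

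Sfrp1, a secreted Frizzled-related protein made by cortical progenitors, was the most abundant antagonist gene among those described here by FPKM, and it fell in the first set. The first-set knockdown libraries had 49.0 and 71.1 FPKM of Sfrp1, against 112.1 and 171.5 FPKM in the controls. The knockdown mean of 60.02 ± 15.6 FPKM was 42.3% of the control mean of 141.8 ± 42.0 FPKM (SD, n = 2 each), with no overlap (-1.22 ± 0.28 SE, limma adjusted p = 0.0238). With so few libraries the call rested on most of them: the adjusted p was 0.166 and 0.0803 without knockdown replicates 1 and 2, and 0.134 without control replicate 2. With no filter on low values it was 0.0842.

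In the new set, Sfrp1 had 99.3, 96.2 and 114.8 FPKM in the knockdown libraries, against 119.4, 111.1 and 133.6 FPKM in the controls. The groups overlapped by 1 knockdown library, and the fold change of -0.23 ± 0.10 (SE) did not pass (limma adjusted p = 0.179). With the replicate number as a block the adjusted p was 0.0425. The joined fold change of Sfrp1 was -0.72 ± 0.14 (SE, limma adjusted p = 0.00409), called in all 17 alternatives (adjusted p between 0.00164 and 0.0151). The difference between the sets, new minus first, was 0.99 ± 0.28 (SE, limma adjusted p = 0.0205). That fit takes the spread as equal in both sets, where the SE of Sfrp1 alone was 0.10 (new) and 0.28 (first). The adjusted p of that difference was 0.0530 after median-of-ratios rescaling, 0.0768 without first-set knockdown replicate 1 and 0.0776 without first-set control replicate 2.

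Sfrp2, a second Frizzled-related protein, known as a marker of the antihem at the lateral border of the pallium, fell in the new set. The knockdown libraries had 11.9, 12.3 and 15.4 FPKM of Sfrp2, against 17.9, 20.6 and 22.1 FPKM in the controls. The knockdown mean of 13.2 ± 1.89 FPKM lay below the control mean of 20.2 ± 2.13 FPKM (SD, n = 3 each), with no overlap (-0.58 ± 0.13 SE, limma adjusted p = 0.0323). The adjusted p was 0.101 and 0.122 without knockdown replicates 10 and 11, 0.0541 and 0.0944 without control replicates 10 and 12, and 0.0572 with no filter. As a percent of the radial glia marker sum, Sfrp2 was 0.946%, 1.05% and 0.873% in the knockdown libraries, against 1.22%, 1.19% and 1.17% in the controls, so the groups did not overlap on that scale. Of 4 antihem markers tested in the new set, 2 had fold changes above 0 and 2 below, the latter being Sfrp2 and Nrg1. Nrg1, a growth factor of the neuregulin family, had 4.38, 3.99 and 4.64 FPKM in the knockdown libraries. Its controls had 7.16, 5.78 and 6.17 FPKM (limma adjusted p = 0.0486). The 5 antihem markers other than Sfrp2 summed to 13.1 to 16.8 FPKM in the new-set knockdown libraries, against 11.2 to 13.8 FPKM in the controls, and these ranges overlapped.

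First-set Nrg1 fell to 19.4 ± 3.44 FPKM in the knockdown, against 33.4 ± 0.179 FPKM in the control (SD, n = 2 each, limma adjusted p = 0.0476). The same 5 markers summed to 19.5 and 23.8 FPKM in the first-set knockdown libraries, against 35.8 and 36.9 FPKM in the controls. First-set Sfrp2 had 7.20 and 15.2 FPKM in the knockdown libraries, against 8.38 and 14.4 FPKM in the controls. The libraries of each group spread more widely than the groups differed (-0.06 ± 0.39 SE, limma adjusted p = 0.921), and the sign turned to 0.10 after median-of-ratios rescaling. The joined fold change of Sfrp2 was -0.32 ± 0.20 (SE, limma adjusted p = 0.229), and 0.0294 was the adjusted p with the replicate number as a block in both sets. The ratio of Sfrp1 to Sfrp2 was 8.33, 7.81 and 7.46 in the new-set knockdown libraries, against 6.67, 5.40 and 6.05 in the controls. It was 6.80 and 4.69 in the first-set knockdown libraries, against 13.4 and 11.9 in the controls. The ratio was thus higher in every knockdown library of the new set and lower in both of the first set, with no overlap in either, and that contrast between the sets was not tested.

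Dkk3, a secreted member of the Dickkopf family that, unlike Dkk1, is not an established inhibitor of Wnt receptors, did not pass the test in either set. It had 3.79, 3.75 and 5.68 FPKM in the new-set knockdown libraries, against 4.26, 4.70 and 3.39 FPKM in the controls, and the groups overlapped (0.07 ± 0.17 SE, limma adjusted p = 0.811). First-set knockdown libraries had 3.03 and 6.79 FPKM of Dkk3, against 10.3 and 7.39 FPKM in the controls. Both knockdown libraries were lower there (-0.80 ± 0.36 SE, limma adjusted p = 0.152), and the difference between the sets of 0.87 did not pass (limma adjusted p = 0.105). The joined fold change of Dkk3 was -0.36 (limma adjusted p = 0.171). Without first-set knockdown replicate 2, the difference was 1.34 (limma adjusted p = 0.0102) and the joined fold change -0.60 (limma adjusted p = 0.0164).

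**Figure D5:**
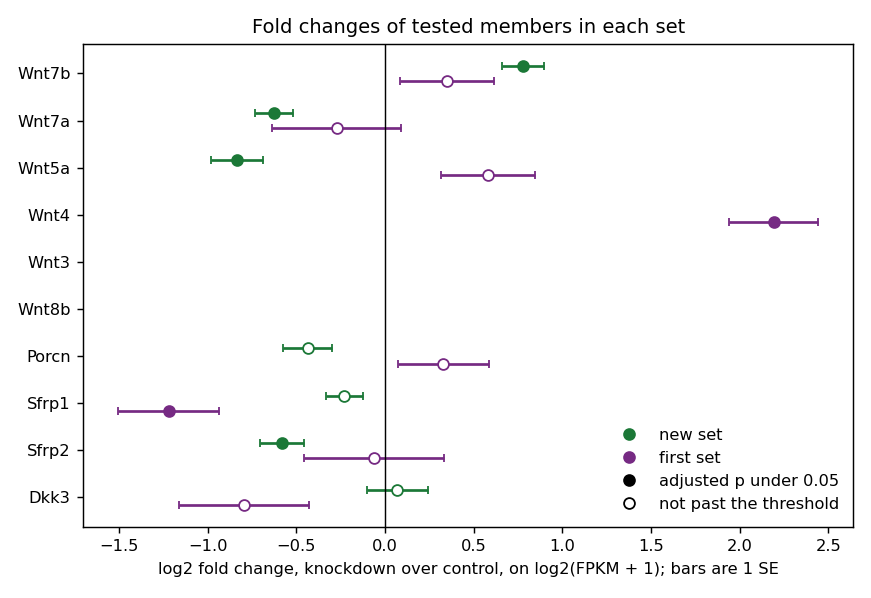
Log2 fold changes, knockdown over control on log2(FPKM + 1), with bars of 1 SE, for each gene tested in the new set (green) and the first set (purple). Filled points have a limma adjusted p under 0.05, and Wnt3, Wnt8b and new-set Wnt4 were not tested; new-set points are filled for Wnt7b (0.78), Wnt7a (-0.62), Wnt5a (-0.84) and Sfrp2 (-0.58), and first-set points for Wnt4 (2.19) and Sfrp1 (-1.22).

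Across the group, 7 of the 10 genes could be tested in the new set, of which 1 rose (Wnt7b) and 3 fell (Wnt7a, Wnt5a and Sfrp2). Of all 11291 genes tested there, 3.84% rose and 5.15% fell. With the replicate number as a block, 1 rose and 5 fell, Porcn and Sfrp1 being added, and 21.7% of all genes were called. Without knockdown replicate 10 or 11 the new-set count by limma was 0, with 5 at an unadjusted p under 0.05; it was 2 without knockdown replicate 12 or control replicate 12, and 1 without control replicate 10. In the first set 8 could be tested, of which 1 rose (Wnt4) and 1 fell (Sfrp1), beside 13.2% and 10.7% of 12461 genes, so the first-set share was near the background. Without first-set knockdown replicate 1 or 2 or control replicate 2, 1 of them was called, Wnt4. Knockdown and control libraries did not overlap for 5 of the 7 genes in the new set, beside 35.7% of all genes tested, or for 6 of the 8 in the first set, beside 67.8%. Wnt5a and Wnt4 passed the filter on low values only through the group in which they were higher, so these counts are a description. The median fold change was -0.44 over the 7 genes in the new set and 0.13 over the 8 in the first set, beside 0.02 and -0.15 over all genes tested.

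In the joined fit 1 of 7 rose (Wnt7b) and 1 fell (Sfrp1), beside 9.37% and 20.5% of 10827 genes. With the replicate block 4 of 7 changed (Wnt7b, Wnt7a, Sfrp1 and Sfrp2), beside 3695 of the 10827 genes. That block also pairs the same-numbered first-set libraries, which did not deviate together. For the difference between the sets, the fold change of 1 of 7 was higher in the new set (Sfrp1) and that of 2 was lower (Wnt5a and Porcn), beside 22.5% and 9.98% of the 10827 genes. After median-of-ratios rescaling, 74.3% of the first-set calls over all genes were higher, against 55.2% before. For the joined calls the share was 46.6% after rescaling and 31.3% before, and for the difference 51.6% after and 69.3% before. The directions of Wnt7b, Wnt4 and Sfrp1 given above were the same under that rescaling.

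Among the other 13 Wnt genes of the tables, only Wnt5b passed the filter, and it did not pass the test in either set. It had 6.94, 6.54 and 5.30 FPKM in the new-set knockdown libraries, against 4.59, 4.85 and 5.43 FPKM in the controls (0.28, limma adjusted p = 0.180). Of the 13, 4 were higher in both first-set knockdown libraries than in both controls and 0 were lower, beside the 48.5% of low genes that were higher. Of these 13, 8 were listed at 0 in both first-set controls, and 7 of those 8 were above 0 in at least 1 knockdown library. In the new set 0 of the 13 separated in either direction. Only 1 of the 13 was tested there, and 4 were listed at 0 in all controls. The 35.7% of tested genes that separated is therefore not a like comparison.

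Of 14 other antagonists that act outside the cell, 3 were tested in the new set, where 1 rose and 1 fell. Apcdd1, a membrane-bound Wnt inhibitor that is itself a beta-catenin target, had 18.5, 19.6 and 20.4 FPKM in the knockdown libraries, against 12.5, 9.52 and 14.0 FPKM in the controls (0.68, limma adjusted p = 0.0270). Igfbp4, an insulin-like growth factor binding protein reported to block Wnt receptors, had 26.7, 22.8 and 22.4 FPKM in the knockdown libraries, against 41.7, 44.4 and 36.6 FPKM in the controls (-0.75, limma adjusted p = 0.0131). Knockdown and control libraries did not overlap for either gene. In the first set 0 of 4 passed by limma, with 0 at an unadjusted p under 0.05, and both genes lay on the same side as in the new set in both knockdown libraries (0.39 for Apcdd1 and -0.38 for Igfbp4). In the joined fit Apcdd1 (0.53, limma adjusted p = 0.0206) and Igfbp4 (-0.56, limma adjusted p = 0.00470) passed.

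Of 7 tested genes for processing and release of Wnts beside Porcn, 0 passed in the new set (limma, with 2 at an unadjusted p under 0.05), and in the first set 2 fell. These were the retromer subunits Vps35 (44.6 ± 20.1 FPKM in the knockdown, 107.7 ± 22.7 FPKM in the control, SD, n = 2 each) and Vps26a (29.3 ± 4.54 FPKM in the knockdown, 54.6 ± 11.4 FPKM in the control). Wls, the carrier that takes Wnts to the cell surface, had a new-set fold change of -0.44 and a first-set one of -0.47, and passed in the joined fit (-0.46, limma adjusted p = 0.0340). Of 6 tested agonists and ligand carriers, Reck, a membrane protein that works with Wnt7 ligands in brain vessels, fell in the new set to 0.815 ± 0.248 FPKM in the knockdown, against 1.89 ± 0.306 FPKM in the control (limma adjusted p = 0.0341), having passed the filter only through its control group. First-set agonists and carriers gave 0 of 6 by limma, and 0 had an unadjusted p under 0.05.

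Of 11 tested receptors and co-receptors in the new set 0 rose and 2 fell, with all 11 fold changes below 0 and a median of -0.30, beside 0.02 over all genes. The 2 were Fzd8 (23.8, 21.7 and 27.7 FPKM in the knockdown libraries, 38.5, 33.1 and 45.1 FPKM in the controls) and Fzd9 (7.38, 6.13 and 5.88 FPKM in the knockdown libraries, 9.98, 9.88 and 9.65 FPKM in the controls). In the first set 1 of 10 rose, Kremen2, a co-receptor for Dickkopf proteins, with 6.42 ± 0.601 FPKM in the knockdown and 0.644 ± 0.0687 FPKM in the control (SD, n = 2 each). Fzd3 and Znrf3 fell. Kremen2 passed the filter through the knockdown group, as Wnt4 did.

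Of the cytoplasmic and nuclear transducers, 0 of 21 rose and 1 fell (Tcf7l1) in the new set, and 1 of 20 rose (Dvl1) and 3 fell (Apc, Dvl3 and Gsk3b) in the first set. Of the genes that beta-catenin is known to induce as feedback, 1 of 6 rose (Apcdd1) and 1 fell (Myc) in the new set, and 2 of 7 rose (Myc and Nkd2) and 2 fell (Ccnd1 and Znrf3) in the first set. Nkd2, which binds Dishevelled, had 6.65 ± 1.92 FPKM in the first-set knockdown and 0.548 ± 0.0554 FPKM in the control (SD, n = 2 each, limma adjusted p = 0.00217), and like Wnt4 it passed the filter only through the knockdown group. Myc passed in opposite directions in the sets. The background shares for these lists are those given above for each set.

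Sources of Wnts next to the electroporated wall were read from their markers. Of 15 markers of the cortical hem and choroid plexus, 0 of 2 tested passed by limma in the new set (1 at an unadjusted p under 0.05), and 1 of 3 (Bmp4, which passed the filter only through the knockdown group) rose in the first set. Their summed level, most of it the R-spondin gene Rspo3 in 9 of 10 libraries, was 30.3 to 71.8 FPKM in the new-set knockdown libraries, against 20.2 to 25.4 FPKM in the controls. New-set knockdown replicate 10 had 42.9 FPKM of the choroid plexus gene Ttr, which was between 0 and 0.0716 FPKM in the other 5 libraries, while the hem gene Wnt3a was at most 0.0582 FPKM in all 6. In the first set the sum was 22.4 to 33.7 FPKM in the knockdown libraries, against 13.7 to 18.9 FPKM in the controls.

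Cajal-Retzius cells, which arise in part from the hem, were represented by 7 markers, of which both tested ones, Reln and Calb2, fell in the new set. Calb2 is also on the interneuron list. Over all genes tested, 3.84% rose and 5.15% fell in the new set, and 13.2% rose and 10.7% fell in the first set. The 7 Cajal-Retzius markers summed to 2.56 to 3.86 FPKM in the new-set knockdown libraries, against 7.01 to 10.9 FPKM in the controls, without overlap. Of 2 tested in the first set, 1 rose (Ebf2, which passed the filter only through the knockdown group), and the sum was 4.49 to 7.98 FPKM in the knockdown libraries, against 2.32 to 6.77 FPKM in the controls. Of 6 tested interneuron markers 5 fell in the new set, Calb2 again among them, and 3 of the 5 had passed the filter only through the controls. The interneuron sums were 13.7 to 17.5 FPKM in the knockdown libraries, against 22.6 to 35.8 FPKM in the controls. Of 6 tested microglia markers 3 rose in the first set, all 3 having passed the filter only through the knockdown group, with sums of 12.4 to 23.8 FPKM in the knockdown libraries, against 4.24 to 7.10 FPKM in the controls. Of 8 meninges markers 0 reached the filter in either set, and their first-set sum was 2.28 to 2.40 FPKM in the knockdown libraries, against 0.651 to 0.738 FPKM in the controls. Of 7 tested genes on the hippocampal and medial pallium list, 1 rose (Nr2f1) and 2 fell (Lhx2 and Lhx9) in the new set. Lhx9 passed the filter only through the controls, and how specific the listed genes are to that region was not tested. The list summed to 172.8 to 218.0 FPKM in the knockdown libraries, against 236.8 to 266 FPKM in the controls. Of 5 tested erythroid markers 2 fell in the new set (Hba-a2 and Hbb-b2), with sums of 23.6 to 115.0 FPKM in the knockdown libraries, against 149.8 to 281 FPKM in the controls. The part of these cells in the values of Wnt5a, Sfrp2 and the first-set ligands was not tested.

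The genes whose pattern was most like that of Wnt7b over the 10 libraries, each taken relative to the control mean of its set, were Wdr1, Aldh1b1 and Sh3bp5. The measure is the root mean square difference in log2(FPKM + 1), over 5297 genes averaging 10 FPKM or more in each table, and it was 0.183, 0.204 and 0.214 for these 3. Wdr1 averaged 118.0 FPKM in the new-set knockdown libraries and 71.2 FPKM in their controls. For Wnt7a the most alike were Cnot6, Ccnl2 and Gga2, with differences of 0.132, 0.148 and 0.170 over 5298 genes. Cnot6 averaged 51.5 FPKM in the new-set knockdown libraries and 71.6 FPKM in their controls.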

How the data were processed

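The authors deposited FPKM values, a column for each of the 10 libraries, all used here, in 2 separately normalized tables of 23235 genes. TopHat2, Bowtie, Cufflinks 2.0.0, Cuffdiff and mm9 are named per the submitters' processing notes. Libraries were made with a low-input kit per the labels' protocols. Neither the annotation nor the strand setting is given in the sources used here, so reads that Wnt7b, Wnt7a, Porcn or Wnt3 share with the genes overlapping them in RefSeq cannot be told apart.

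Values were taken as log2(FPKM + 1), and genes averaging 1 FPKM or more in a table were fitted with limma 3.58.1 in R 4.3.3 (intensity trend, two-sided), with Benjamini-Hochberg adjustment over all genes tested and a threshold of 0.05. A joined fit over genes passing in both tables gave the mean and the difference (new minus first) of the fold changes. It used a single residual variance per gene for both sets, so its SE and p-values assume an equal spread in both. The fits were tested on simulated data. Depth is unknown, so 3 and 2 libraries per group limit the precision. P-values measure the spread between pools of embryos.

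Same-numbered new-set libraries deviated together from their group means (correlations 0.122, 0.242 and 0.193 over 11291 genes, all above 0.1), so the numbers pair them. In the first set they did not deviate together (-0.03). The replicate block of the joined fit pairs both sets, so its values rest partly on a first-set pairing that the libraries do not show.

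The genes, marker lists and pathway lists were chosen with earlier results of these data known. Named beside the 10 genes are Chd8, up to 4 called genes of each pathway list with the smallest joined p, and 3 genes most like Wnt7b and Wnt7a. Other marker and pathway genes that the text names were chosen after their values were seen. Alternatives were a pseudocount of 0.1, no filter, a minimum mean of 5 FPKM, median-of-ratios rescaling, no intensity trend, subtraction of the olfactory receptor mean, the replicate block and leaving out each library.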

Additional observations from a re-analysis of the deposited data

Results flagged for a closer look

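The fold changes of 3 of the 7 genes tested in both tables differed between the sets by a test of the difference itself (new minus first, limma adjusted over 10827 genes). That test takes the spread of a gene as equal in both sets. For Wnt5a the difference was -1.42 (adjusted p = 0.00393), with knockdown below control in the new set and above it in the first. Wnt5a passed the filter in the new set only through its controls and was not tested without new-set control replicate 10 or 12. Its first-set fold change did not pass (0.58, adjusted p = 0.150) and was 0.24 with the olfactory receptor mean subtracted. For Porcn the difference was -0.76 (adjusted p = 0.0452), again with knockdown below control in the new set and above it in the first. Porcn passed in neither set alone in the main fit (limma adjusted p = 0.0807 new, 0.374 first). With the replicate number as a block, new-set Porcn did pass (limma adjusted p = 0.0192). Its difference had an adjusted p of 0.0565 with the olfactory receptor mean subtracted. For Sfrp1 the difference was 0.99 (adjusted p = 0.0205), with knockdown further below control in the first set (-1.22) than in the new set (-0.23). After median-of-ratios rescaling, the adjusted p of the Sfrp1 difference was 0.0530. These sets differ at once in shRNA, batch and table, and the parts of each cannot be told apart. Of all genes tested, 22.5% were higher and 9.98% lower in this difference.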

How the results depend on the processing

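Of 400 values of a gene under an alternative, 348 kept their direction and their side of the threshold, 30 lost the call, 12 gained it and 10 turned sign, none of the last being called. All genes changed numbered 1015 (new set), 2971 (first set), 3238 in the joined fit and 3520 for the difference between sets. With no filter on low values they were 470 in the new set, 5917 in the joined fit and 6345 for the difference, and with a minimum mean of 5 FPKM 1602 in the first set. With the replicate block the new set had 2452, and 4 of the described genes changed in the joined fit. Leaving out 1 library gave 88 to 1883 new-set calls and 713 to 1247 first-set calls.

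Of the described genes, with no filter 4 changed in the joined fit and 5 for the difference, and with a minimum of 5 FPKM 1 changed in the first set. Leaving out 1 library gave 0 to 4 in the new set (by limma 0 without knockdown replicate 10 or 11, with 5 at an unadjusted p under 0.05), 1 to 2 in the first set, 2 to 5 in the joined fit and 1 to 3 for the difference. Leave-one-out values spanned 0 for Dkk3 in the new set (-0.0921 to 0.154), Porcn in the joined fit (-0.190 to 0.0823), Sfrp2 in the first set (-0.55 to 0.43), and Wnt7a in the first set (-0.66 to 0.12) and for the difference (-0.741 to 0.0355). Median-of-ratios rescaling turned Porcn in the joined fit to 0.0234 and Sfrp2 in the first set to 0.10. The cause was not tested, beyond fewer libraries or another number of genes tested. Where leaving out a library left 1 in a group, its spread was assumed equal to the others'. The block changed no other call of these genes than those of Porcn, Sfrp1, Wnt7a and Sfrp2 given above. Depth is unknown, and genes under 1 FPKM carry the least information.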
